A study of Mus musculus with 8 samples.

Results

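The G1 cyclins, cyclin-dependent kinases (CDKs) and CDK inhibitors described here are 10 genes chosen by symbol, with earlier results of these data known. The genes are Ccnd1, Ccnd2, Ccnd3, Ccne1, Cdk2, Cdk4, Cdk6, Cdkn1b, Cdkn2a and Cdkn2b. All 10 were present among the 13607 gene symbols of the deposited count table. RNA came from cultured mouse astrocytes of a C57BL/6J background with floxed Yap and Taz alleles (Yapf/f;Tazf/f), a genotype that all 4 groups shared. The series describes lentiviral delivery of doxycycline-inducible HER2CA, an activated form of the receptor tyrosine kinase HER2, together with rtTA, the activator that doxycycline controls, and CreERT2, a Cre recombinase that 4-hydroxytamoxifen switches on. The 4 groups held 2 libraries each, called A and B. Control astrocytes were untransformed and kept without doxycycline. HER2CA day 15 astrocytes were kept with doxycycline and collected at day 15. The 4OH-TAM-labelled libraries came from cells kept with doxycycline and 1 µM 4OH-TAM and collected at day 15. Gliomaspheres were P1 spheres cultured in suspension, also with doxycycline, and were collected at 3 weeks. All cultures received the growth factors EGF and bFGF. The labels name DMSO for HER2CA day 15 and gliomaspheres, while the treatment protocol calls cells without 4OH-TAM untreated. The sources used here do not give the promoter that drives CreERT2, whether the controls carried the constructs, or whether libraries A and B came from separate cultures. The p-values therefore describe the spread among these libraries alone, and that spread may be technical.

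D-type cyclins are made in response to growth factors and join CDK4 or CDK6 to begin phosphorylating the retinoblastoma protein, which holds back the E2F transcription factors. Cyclin E then joins CDK2 to complete that step and start DNA synthesis. Cdkn1b encodes p27, which blocks cyclin E-CDK2 and is itself taken up by cyclin D complexes. Cdkn2b encodes p15 and Cdkn2a encodes p16, both of which bind CDK4 and CDK6 and keep D cyclins away. From its upstream start Cdkn2a also encodes p19ARF, which restrains MDM2 and so stabilises p53. In glial tumours, loss of the Cdkn2a and Cdkn2b locus and gain of CDK4, CDK6 or D cyclins are common.

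Sequences upstream of 3 start sites are shown because 1 bears on a gene highest in gliomaspheres and 2 bear on how a Cdkn2a count must be read. The reference table of promoters, from RefSeq on GRCm38.p6, matched 8 of the 10 genes, with 10 start sites. The 250 bases before each start were searched on both strands for CACGTG (an E-box), TTTCCCGC, TTTGGCGC or TTTCGCGC (E2F-type words), GGGCGG (a GC box), GGAATG (a TEAD-type word) and TGACGTCA (a CRE). Capitals mark matches to an E-box, an E2F-type word or a GC box on either strand, and 0 of these matches overlapped another. All sequences run 5′ to 3′ on the strand of the gene. Bases that lie inside the GENCODE M21 gene are left out. The Cdk4 stretch is chr10:127063285-127063533, plus strand. The first Cdkn2a stretch lies before the upstream start, used by p19ARF, at chr4:89294654-89294869, minus strand. The second lies before the downstream start, used by p16, at chr4:89282193-89282442, minus strand.
Cdk4: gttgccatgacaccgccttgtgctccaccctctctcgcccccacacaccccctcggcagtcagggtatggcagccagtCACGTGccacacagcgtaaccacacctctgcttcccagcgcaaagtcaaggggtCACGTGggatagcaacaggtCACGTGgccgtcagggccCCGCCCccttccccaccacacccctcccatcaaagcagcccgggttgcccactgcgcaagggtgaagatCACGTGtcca
Cdkn2a, upstream start: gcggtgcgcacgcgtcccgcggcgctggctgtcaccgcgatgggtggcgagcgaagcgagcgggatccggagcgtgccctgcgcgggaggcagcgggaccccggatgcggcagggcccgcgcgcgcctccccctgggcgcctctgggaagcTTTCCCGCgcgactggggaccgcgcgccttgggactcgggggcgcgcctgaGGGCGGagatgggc
Cdkn2a, downstream start: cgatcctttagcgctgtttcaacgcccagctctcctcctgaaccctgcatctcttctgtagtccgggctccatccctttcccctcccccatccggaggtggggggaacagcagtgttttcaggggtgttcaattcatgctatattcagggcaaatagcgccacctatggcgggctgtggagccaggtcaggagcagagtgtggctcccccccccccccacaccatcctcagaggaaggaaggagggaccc

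The Cdk4 window held 4 E-boxes, which begin 172, 118, 98 and 11 bases before the start. The Cdk6 window, not printed, held 1 E-box, 220 bases before the start. At least 1 E-box was found in 6.02% of the 32851 windows of the table, and 4 or more in 7 windows (0.0213%). The Cdkn2a window before the upstream start held 1 E2F-type word, 99 bases before that start, as did 1.53% of all windows, while the window before the downstream start held none of the 5 motifs. The windows of Cdk2 and Ccne1, not printed, held 5 and 4 GC boxes, a motif present in 32.7% of windows, and Cdk2 also held 1 E2F-type word. A TEAD-type word stood in 1 of the 2 Ccnd3 windows (12.6% of all windows) and a CRE in the Cdkn2b window (1.55%). A match describes letters only and is not evidence of binding. The 2 Cdkn2a starts lie 12.4 kb apart and the table gives 1 count per symbol, so transcripts for p16 and p19ARF cannot be told apart in any Cdkn2a value below.

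Library totals ran from 15517708 to 28231426 counts, and the lowest count of any of the 10 genes in any library was 65, for Cdk6 in gliomaspheres B. Gliomaspheres B stood apart: the ribosomal RNA transcript Rn45s took 36.1% of its counts, against 0.984% to 2.92% in the other 7 libraries, so gliomasphere values are also given without it where that matters. Under the 4OH-TAM label Yap1 was not lower than in HER2CA day 15 (107 and 103 against 101 and 103 CPM; edgeR quasi-likelihood log2 fold change 0.04, adjusted p = 0.569), while Wwtr1, which encodes TAZ, was lower (123 and 122 against 194 and 210.3 CPM; log2 fold change −0.73, adjusted p = 1.25e-07). Directions are therefore drawn for the 4OH-TAM-labelled libraries, not for cells shown to lack both genes. Erbb2, the mouse gene for HER2, was at 30.9 and 30.0 CPM at HER2CA day 15 against 32.8 and 31.2 CPM in controls. That difference was not called (log2 fold change −0.07, edgeR adjusted p = 0.461), and Erbb2 was lower in gliomaspheres than in controls (−0.51, edgeR adjusted p = 0.000193). The sources used here do not say whether HER2CA reads would be counted as Erbb2. The summed level of 10 astrocyte markers, 10 of them measured and none at 0, was 5807 to 6784 CPM in controls, 2821 to 2901 CPM at HER2CA day 15, 12355 to 12923 CPM in the 4OH-TAM-labelled libraries and 11289 to 11721 CPM in gliomaspheres. Of 10 microglia and macrophage markers 9 were measured and none was at 0, and their sum was 976 to 1013 CPM in the 4OH-TAM-labelled libraries against 188 to 205 CPM in controls and HER2CA day 15 and 100.5 to 100.6 CPM in gliomaspheres. Of 10 oligodendrocyte-lineage markers 9 were measured and none was at 0, and their sum was 468 and 506 CPM in controls, 119 and 110 CPM at HER2CA day 15, 908 and 952 CPM in the 4OH-TAM-labelled libraries and 3306 and 2995 CPM in gliomaspheres. Of 10 neuron markers 7 were measured, with Dcx at 0 at HER2CA day 15, and the sum was 362 and 364, 135 and 145, 384 and 397, and 664 and 648 CPM in the same order of groups. In such bulk samples, fewer cells of a type and less RNA per cell cannot be told apart.

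Levels are given in CPM (counts scaled to a common library total) with TMM-scaled library sizes, and a call means a Benjamini-Hochberg adjusted p under 0.05 over all 13607 genes in edgeR's quasi-likelihood test. Most genes of the table were called in most of these comparisons, so the number of the 10 called is read beside that background. In HER2CA day 15 against controls, 7 of the 10 were called (all genes 75.8%), 1 higher (37.3%) and 6 lower (38.4%), 3 of them at 2-fold or more (29.6%). In the 4OH-TAM-labelled libraries against HER2CA day 15, 9 were called (80.5%), 5 higher (40.8%) and 4 lower (39.7%), 3 at 2-fold or more (33.2%). Against controls the same libraries had 7 called (59.2%), 2 higher (31.0%) and 5 lower (28.2%), 1 at 2-fold or more (15.1%). In gliomaspheres against controls 8 were called (64.5%), 5 higher (32.5%) and 3 lower (32.0%), 3 at 2-fold or more (20.0%). Against HER2CA day 15 gliomaspheres had 8 called (78.8%), 7 higher (38.4%) and 1 lower (40.4%), 4 at 2-fold or more (36.3%). Against the 4OH-TAM-labelled libraries they had 7 called (61.0%), 5 higher (31.3%) and 2 lower (29.7%), 2 at 2-fold or more (18.6%). The share of the 10 genes called was thus nearest that of all genes in HER2CA day 15 against controls and in gliomaspheres against HER2CA day 15. In the other comparisons it was somewhat higher, by a gene or so among 10, and the counts say little by themselves. The median absolute log2 fold change of the 10 genes was 0.75 in gliomaspheres against controls, beside 0.42 over all genes, and 0.41 in HER2CA day 15 against controls, beside 0.63. For the 4OH-TAM-labelled libraries it was 0.37 beside 0.67 against HER2CA day 15, and 0.40 beside 0.33 against controls. Gliomaspheres had 0.71 beside 0.71 against HER2CA day 15, and 0.45 beside 0.37 against the 4OH-TAM-labelled libraries. The 6 comparisons share libraries, so their results are not independent of each other. Below, no scaling factors means library totals that still hold Rn45s, and that setting kept 22 of the 46 calls of the 10 genes. Over all genes it called 19.5% to 56.3% in the 6 comparisons. With Rn45s and Lars2 removed first, no scaling kept 43 of the 46 calls, and it called 58.0% to 79.1% of all genes.

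**Figure D1:**
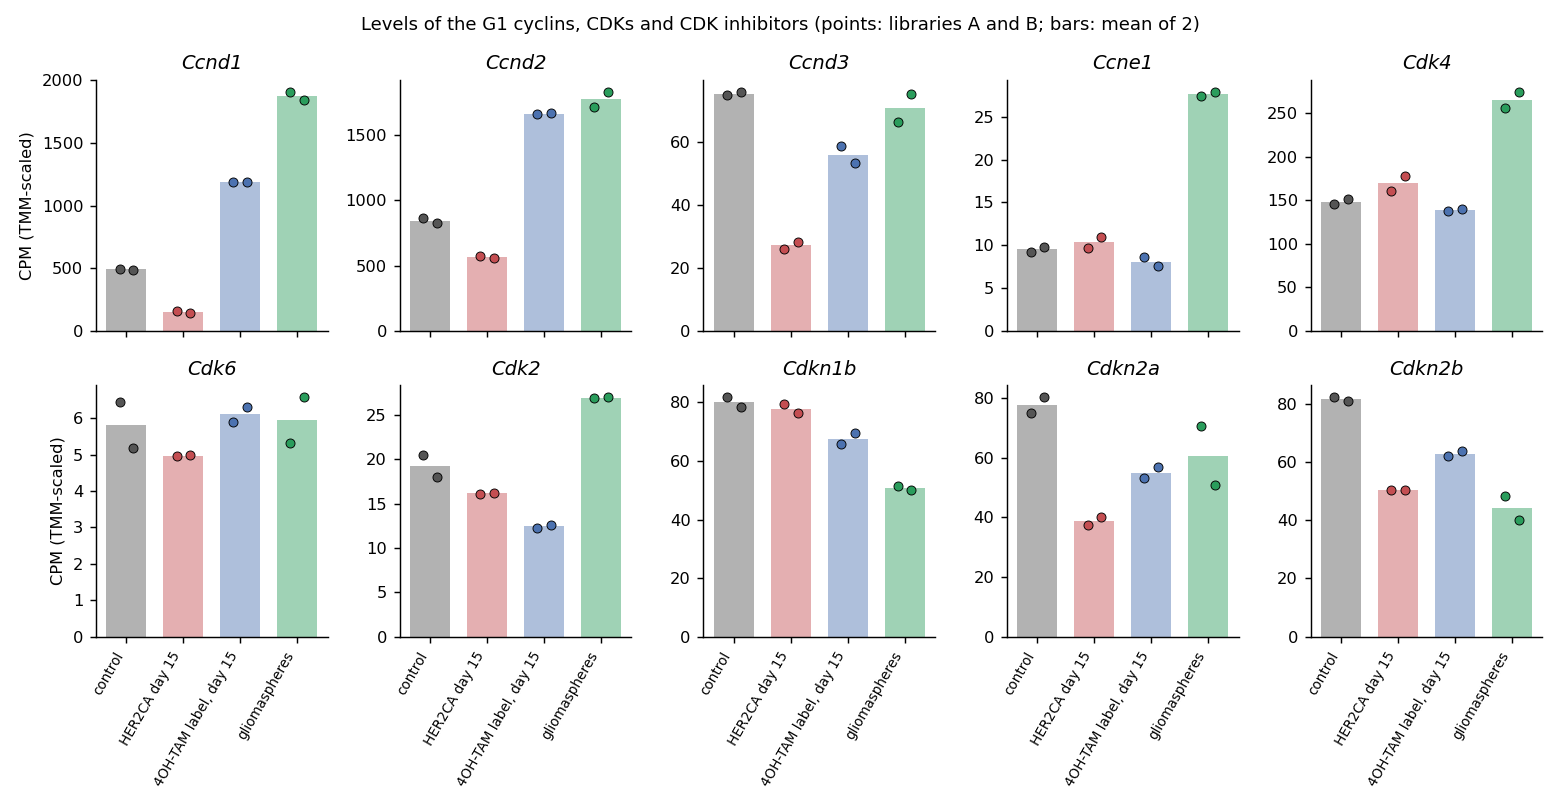
Level of each of the 10 genes in CPM (vertical axes, linear from 0, scaled separately for each gene) in the 4 groups; points are libraries A and B and bars their mean. Ccnd1 and Ccnd2 are lowest in HER2CA day 15, Ccne1, Cdk4 and Cdk2 stand highest in gliomaspheres, and Cdkn1b and Cdkn2b are lowest there.

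Among the D-type cyclins, Ccnd1 (ENSMUSG00000070348.5, cyclin D1; chromosome 7, 144929931 to 144939925 on GRCm38) had the widest range of the 10 genes, with a group mean 12.5-fold higher in gliomaspheres than in HER2CA day 15. It was at 498 and 487 CPM in the control libraries, 156 and 145 CPM at HER2CA day 15, 1190.3 and 1188 CPM in the 4OH-TAM-labelled libraries and 1909 and 1842 CPM in gliomaspheres. The 4 groups did not overlap, and each neighbouring pair in this order was called. Ccnd1 fell by 1.71 on the log2 scale in HER2CA day 15 against controls (SE 0.0759, edgeR adjusted p = 3.46e-11). It was 7.90-fold higher in the 4OH-TAM-labelled libraries than in HER2CA day 15 (log2 fold change 2.98, SE 0.0793, edgeR adjusted p = 2.91e-13). The same libraries were also above controls, by 1.27 on the log2 scale (edgeR adjusted p = 3.51e-09). Gliomaspheres exceeded controls by 1.93 and the 4OH-TAM-labelled libraries by 0.66 on the log2 scale, and the second call was lost with no scaling factors (0.27, edgeR adjusted p = 0.516).

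Ccnd2 (cyclin D2; chromosome 6, 127125162 to 127152193) followed the same order, with a smaller range. Its levels were 861 and 822 CPM in controls, 576 and 559 CPM at HER2CA day 15, 1655 and 1663 CPM in the 4OH-TAM-labelled libraries and 1714 and 1828 CPM in gliomaspheres. The last 2 groups had the highest libraries and lay next to each other, and their difference was not called (log2 fold change 0.09, SE 0.0758, edgeR adjusted p = 0.298). Ccnd2 was 1.48-fold higher in controls than in HER2CA day 15 (log2 fold change −0.57, edgeR adjusted p = 6.56e-06), a call lost with no scaling factors (−0.62, edgeR adjusted p = 0.0785). It was 2.92-fold higher in the 4OH-TAM-labelled libraries than in HER2CA day 15 (1.55, edgeR adjusted p = 1.03e-10) and 2.10-fold higher in gliomaspheres than in controls (1.07, edgeR adjusted p = 1.27e-08).

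Ccnd3 (cyclin D3; chromosome 17, 47505051 to 47599691) shared the low level in HER2CA day 15 but not the rise above controls. It was at 74.7 and 75.9 CPM in controls, 26.0 and 28.4 CPM at HER2CA day 15, 58.5 and 53.4 CPM in the 4OH-TAM-labelled libraries and 66.1 and 75.2 CPM in gliomaspheres. The libraries of gliomaspheres and controls overlapped, and their difference was not called (log2 fold change −0.10, SE 0.0844, edgeR adjusted p = 0.310). Ccnd3 fell by 1.47 on the log2 scale in HER2CA day 15 against controls (edgeR adjusted p = 7.97e-10). In the 4OH-TAM-labelled libraries it was 1.04 above HER2CA day 15 on that scale (edgeR adjusted p = 3.52e-08) and 0.43 below controls (edgeR adjusted p = 0.000444), the second call being lost with no scaling factors (−0.36, edgeR adjusted p = 0.496). The gliomasphere level exceeded that of the 4OH-TAM-labelled libraries by 0.33 (edgeR adjusted p = 0.00389), a call lost with no scaling factors, where the value was −0.08, and without library B of the 4OH-TAM label.

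Compared per kilobase of reference transcript, the D-type cyclin pool differed between groups both in size and in make-up. The summed level of the 3 genes was 305 and 296 CPM per kb in controls, 145 and 140.5 CPM per kb at HER2CA day 15, 607 and 606 CPM per kb in the 4OH-TAM-labelled libraries and 812 and 817 CPM per kb in gliomaspheres. Ccnd1 made up 43.9% ± 0.171 of it in controls (SD, n = 2), 28.2% ± 0.816 in HER2CA day 15, 52.4% ± 0.0403 in the 4OH-TAM-labelled libraries and 61.6% ± 1.79 in gliomaspheres. The share of Ccnd2 was 62.8% in HER2CA day 15 against 34.3% in gliomaspheres, and that of Ccnd3 was 11.9% in controls against 4.1% in gliomaspheres. No test was run on these shares, and in no pair of groups did the libraries overlap for Ccnd1. The shares rested on the transcript length used: without any length correction that of Ccnd1 was 35.0%, 20.2%, 41.0% and 50.5% in the 4 groups, in the same order. The Ccnd3 share was then 5.34% in controls and 1.90% in gliomaspheres, and 4.24% and 1.35% with merged exon length. The summed oligodendrocyte-lineage and neuron markers given above stood in the same order of groups as Ccnd1, from HER2CA day 15 through controls and the 4OH-TAM-labelled libraries to gliomaspheres. The summed astrocyte markers were also lowest in HER2CA day 15, but were higher in the 4OH-TAM-labelled libraries than in gliomaspheres. The part of these markers, and of the microglia and macrophage markers, in the D-type cyclin levels was not tested.

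**Figure D2:**
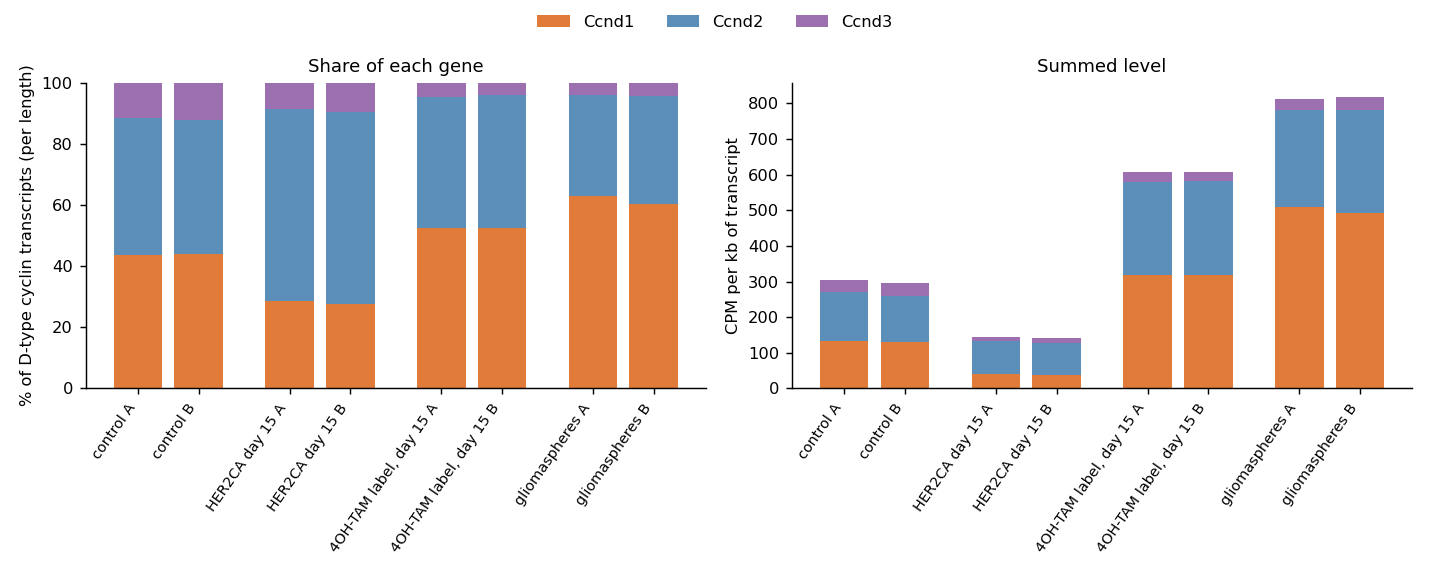
Left, share of Ccnd1, Ccnd2 and Ccnd3 in the D-type cyclin transcripts of each library, in % after division by transcript length; right, their stacked level in CPM per kb, so that each bar's height is the sum. HER2CA day 15 has the smallest bars, 145 and 140.5 CPM per kb, and the largest Ccnd2 share, and the Ccnd1 share is largest in gliomaspheres.

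Cyclin E1 and its kinase partner were highest in gliomaspheres. Ccne1 (chromosome 7, 38097984 to 38107534) was at 9.22 and 9.80 CPM in controls, 9.72 and 10.9 CPM at HER2CA day 15, 8.58 and 7.61 CPM in the 4OH-TAM-labelled libraries and 27.5 and 27.9 CPM in gliomaspheres. The 6 astrocyte libraries thus lay between 7.61 and 10.9 CPM and both gliomasphere libraries well above them. Ccne1 was 2.91-fold higher in gliomaspheres than in controls (log2 fold change 1.54, SE 0.117, edgeR adjusted p = 2.56e-08) and 3.41-fold higher than in the 4OH-TAM-labelled libraries (1.77, SE 0.119, edgeR adjusted p = 7.77e-09). Without gliomaspheres B the first of these was 1.53 (edgeR adjusted p = 5.86e-09). Neither day 15 group differed from controls past the threshold. Ccne1 was lower in the 4OH-TAM-labelled libraries than in HER2CA day 15 (−0.36, SE 0.123, edgeR adjusted p = 0.0154), a call lost with upper-quartile factors and without library B of either group.

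Cdk2 (chromosome 10, 128697939 to 128705031), the partner of cyclin E, was at 20.5 and 18.0 CPM in controls, 16.1 and 16.2 CPM at HER2CA day 15, 12.3 and 12.6 CPM in the 4OH-TAM-labelled libraries and 26.95 and 27.01 CPM in gliomaspheres. The 4 groups did not overlap, and Cdk2 was called in all 6 comparisons, as Ccnd1 was. All 6 calls of Cdk2 were lost with no scaling factors, against 1 of Ccnd1. After removal of Rn45s and Lars2, all 6 calls of Cdk2 held with no scaling. Against controls it was 1.40-fold higher in gliomaspheres (log2 fold change 0.48, SE 0.09996, edgeR adjusted p = 0.000633; 0.16 and 0.718 with no scaling factors) and fell by 0.63 on the log2 scale in the 4OH-TAM-labelled libraries (SE 0.102, edgeR adjusted p = 8.94e-05; 0.218 with no scaling factors). Gliomaspheres exceeded the 4OH-TAM-labelled libraries 2.17-fold (1.12, edgeR adjusted p = 2.67e-07; 0.72 and 0.058 with no scaling factors). The small decrease in HER2CA day 15 against controls (−0.26, edgeR adjusted p = 0.0302) was lost in DESeq2 and without control A or either HER2CA library. So in the 4OH-TAM-labelled libraries Ccnd1 and Ccnd2 were above controls while Cdk2 was below them.

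Of the 2 kinases that D-type cyclins bind, Cdk4 (chromosome 10, 127063534 to 127067920) was the more abundant per transcript length in every library. It was at 145 and 151 CPM in controls, 161 and 178 CPM at HER2CA day 15, 138 and 139.7 CPM in the 4OH-TAM-labelled libraries and 257 and 275 CPM in gliomaspheres. Gliomaspheres stood above all 6 astrocyte libraries. Cdk4 was 1.79-fold higher there than in controls (log2 fold change 0.84, SE 0.0729, edgeR adjusted p = 1.11e-07). It was 1.56-fold higher than in HER2CA day 15 (0.65, edgeR adjusted p = 8.30e-07) and 1.91-fold higher than in the 4OH-TAM-labelled libraries (0.94, edgeR adjusted p = 4.03e-08). With no scaling factors these 3 calls were lost, at 0.50, 0.36 and 0.53 on the log2 scale (edgeR adjusted p = 0.173, 0.290 and 0.158). The same 3 calls held with no scaling after removal of Rn45s and Lars2. The 4OH-TAM-labelled libraries were below HER2CA day 15 (−0.29, edgeR adjusted p = 0.00182), a call lost with upper-quartile factors (−0.08, edgeR adjusted p = 0.296). In HER2CA day 15 against controls the difference was 0.19 (edgeR adjusted p = 0.0247), which did not hold with upper-quartile factors or without control A or HER2CA library B. Tspan31 overlaps 641 exon bases of Cdk4 on the opposite strand and was at 216 and 224 CPM at HER2CA day 15 against 128 to 157 CPM in the other 6 libraries. Its part in the Cdk4 counts was not tested, and the sources used here do not give the strand setting of the counting.

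Cdk6 (chromosome 5, 3341485 to 3531008) stayed at a low level and was called in 0 of the 6 comparisons. It was at 6.45 and 5.19 CPM in controls, 4.95 and 5.002 CPM at HER2CA day 15, 5.90 and 6.31 CPM in the 4OH-TAM-labelled libraries and 5.32 and 6.58 CPM in gliomaspheres. Controls, gliomaspheres and the 4OH-TAM-labelled libraries overlapped, and HER2CA day 15 lay just below them. Its largest difference was between the 2 day 15 groups (log2 fold change 0.29, SE 0.159, edgeR adjusted p = 0.101). That difference was called with upper-quartile factors (0.50, edgeR adjusted p = 0.00921), the 5 CPM filter (0.37), no scaling after removal of Rn45s and Lars2 (0.42) and without gliomaspheres B (0.35, edgeR adjusted p = 0.0386). In HER2CA day 15 against controls Cdk6 was called lower with upper-quartile factors alone (−0.38, edgeR adjusted p = 0.0401). Per kilobase of transcript, Cdk4 exceeded Cdk6 by a ratio of 126 and 164 in controls, 182 and 200.2 in HER2CA day 15, 131 and 124 in the 4OH-TAM-labelled libraries and 271 and 235 in gliomaspheres.

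**Figure D3:**
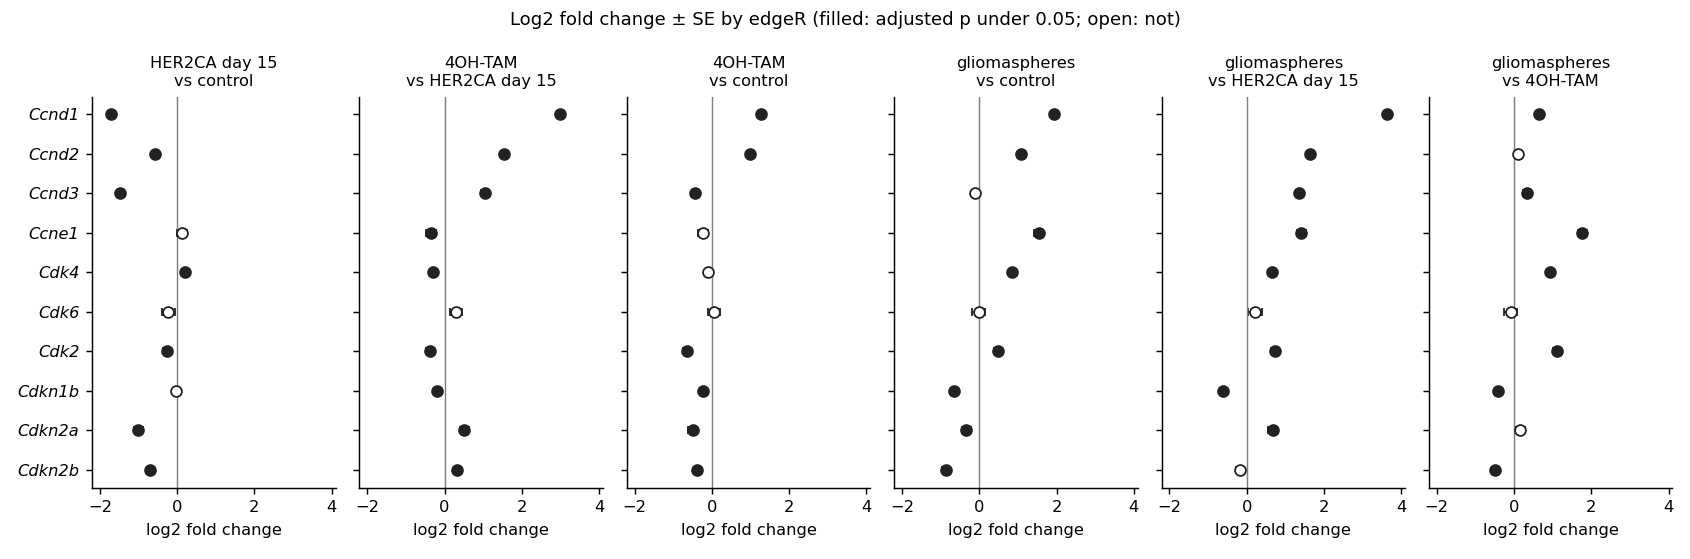
Log2 fold change (horizontal axes) of each gene in the 6 comparisons, with its standard error as a bar; filled points have an edgeR adjusted p under 0.05 and open points do not. Ccnd1 reaches 3.64 in gliomaspheres against HER2CA day 15, Cdk6 is open in every panel, and Cdkn1b has no filled point to the right of 0.

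The inhibitors had smaller ranges than the cyclins. Cdkn1b (p27; chromosome 6, 134920401 to 134925513) was at 81.8 and 78.3 CPM in controls, 79.4 and 76.3 CPM at HER2CA day 15, 65.7 and 69.6 CPM in the 4OH-TAM-labelled libraries and 51.4 and 50.1 CPM in gliomaspheres. Controls and HER2CA day 15 overlapped (log2 fold change −0.04, SE 0.0708, edgeR adjusted p = 0.615; −0.20 and 0.0213 with upper-quartile factors), and both gliomasphere libraries lay below the other 6. Cdkn1b fell by 0.65 on the log2 scale in gliomaspheres against controls (SE 0.0745, edgeR adjusted p = 2.10e-06), by 0.61 against HER2CA day 15 (edgeR adjusted p = 1.96e-06) and by 0.41 against the 4OH-TAM-labelled libraries (edgeR adjusted p = 0.000228). Between the 2 day 15 groups it was lower under the 4OH-TAM label (−0.20, edgeR adjusted p = 0.0170), but with upper-quartile factors the value was 0.00 and the call was also lost in 7 other alternatives, among them DESeq2 and the fits without gliomaspheres B (−0.14, adjusted p = 0.0561 in edgeR) or without library A of either day 15 group. Against controls the 4OH-TAM-labelled libraries were lower by 0.24 on that scale (edgeR adjusted p = 0.00883), a call lost with no scaling factors and without control A or library A of the label.

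The 2 INK4 genes are neighbours on chromosome 4 and both were highest in controls. Cdkn2a (89274471 to 89294653; p16 and p19ARF together) was at 75.1 and 80.2 CPM in controls, 37.4 and 39.9 CPM at HER2CA day 15, 53.1 and 56.8 CPM in the 4OH-TAM-labelled libraries and 70.7 and 50.7 CPM in gliomaspheres. The gliomasphere libraries differed from each other, and B, the one with 36.1% Rn45s, fell below both 4OH-TAM-labelled libraries. Cdkn2a was 2.01-fold higher in controls than in HER2CA day 15 (log2 fold change −1.004, SE 0.114, edgeR adjusted p = 1.12e-06), just past 2-fold. Between the 2 day 15 groups it was higher under the 4OH-TAM label (0.51, SE 0.115, edgeR adjusted p = 0.000879), and it stayed below controls there (−0.50, edgeR adjusted p = 0.00140). In gliomaspheres against controls it was −0.33 (edgeR adjusted p = 0.0194), and −0.14 without gliomaspheres B (edgeR adjusted p = 0.174), and the call was also lost without control B. Against the 4OH-TAM-labelled libraries the gliomasphere value was 0.17 (edgeR adjusted p = 0.221), and 0.34 without gliomaspheres B (edgeR adjusted p = 0.00207). The call in HER2CA day 15 against controls was the only call of Cdkn2a that held with no scaling factors. After removal of Rn45s and Lars2, every call of Cdkn2a held with no scaling.

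Cdkn2b (p15; 89306299 to 89311039) was at 82.2 and 80.8 CPM in controls, 50.5 and 50.5 CPM at HER2CA day 15, 61.9 and 63.8 CPM in the 4OH-TAM-labelled libraries and 48.3 and 40.0 CPM in gliomaspheres. No 2 groups overlapped, and controls were above every other library. Cdkn2b fell by 0.69 on the log2 scale in HER2CA day 15 (SE 0.0831, edgeR adjusted p = 2.06e-06), by 0.37 in the 4OH-TAM-labelled libraries (edgeR adjusted p = 0.00119) and by 0.87 in gliomaspheres (SE 0.0865, edgeR adjusted p = 5.17e-07), each against controls. Between the 2 day 15 groups it was higher under the 4OH-TAM label (0.32, edgeR adjusted p = 0.00275). With no scaling factors the calls between the day 15 groups and of the 4OH-TAM-labelled libraries against controls were lost (edgeR adjusted p = 0.222 and 0.589). Gliomaspheres and HER2CA day 15, the 2 lowest groups, did not differ past the threshold (−0.18, edgeR adjusted p = 0.0802; −0.02 and 0.817 without gliomaspheres B), but were called different without gliomaspheres A (−0.34, edgeR adjusted p = 0.00411). Cdkn2a and Cdkn2b thus both fell in HER2CA day 15, and the difference between the 2 genes' changes in gliomaspheres was not tested.

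Ratios taken within a library need no scaling between libraries. Per transcript length, the ratio of Ccnd1 to Cdkn1b was 7.42 and 7.57 in controls, 2.39 and 2.31 in HER2CA day 15, 22.0 and 20.8 in the 4OH-TAM-labelled libraries and 45.2 and 44.8 in gliomaspheres. For Ccne1 over Cdkn1b the 6 astrocyte libraries ranged from 0.249 to 0.326, while gliomaspheres had 1.21 and 1.27. Cdk2 over Cdkn1b was 0.367 to 0.511 in the astrocyte libraries and 1.06 and 1.10 in gliomaspheres. The ratio of Ccnd1 to Cdkn1b was therefore above controls in the 4OH-TAM-labelled libraries and in gliomaspheres, the ratio of Cdk2 to Cdkn1b was above both controls in gliomaspheres and below them in both day 15 groups, and for Ccne1 the 3 astrocyte groups overlapped. The ratios depend on the transcript length used, while their order between libraries does not. In gliomaspheres Cdk2 over Cdkn1b was 0.384 and 0.395 with merged exon length and 0.524 and 0.539 with no length correction, and Ccne1 over Cdkn1b was 0.534 and 0.558 with no length correction. Cdkn2a over Cdkn2b was 1.42 and 1.54 in controls, 1.15 and 1.23 in HER2CA day 15, 1.33 and 1.38 in the 4OH-TAM-labelled libraries and 2.27 and 1.97 in gliomaspheres.

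**Figure D4:**
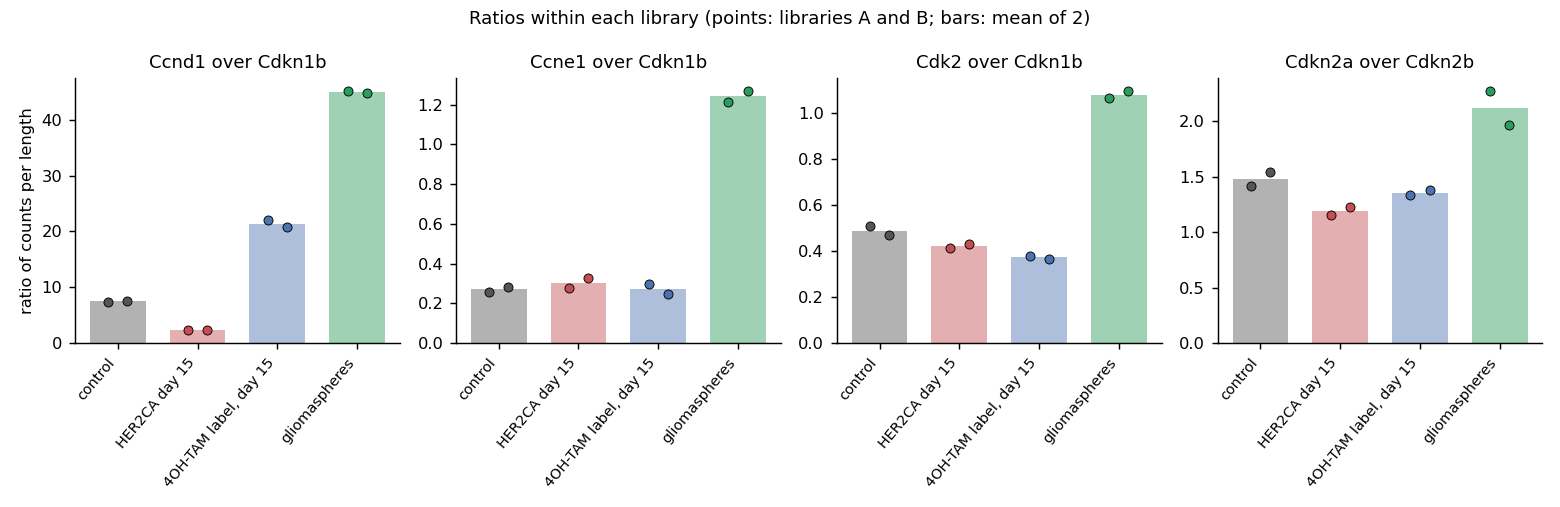
Ratio of 2 genes' counts per transcript length within each library (vertical axes, linear from 0) in the 4 groups; points are libraries A and B and bars their mean. Ccnd1 over Cdkn1b is above controls in the 4OH-TAM-labelled libraries and in gliomaspheres, while Ccne1 over Cdkn1b exceeds 1.21 in gliomaspheres and stays at or below 0.326 elsewhere.

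Over the 8 libraries the genes fell into a few shapes, described here by Pearson's r of log2 CPM, which reflects 4 group means more than 8 separate points. Ccnd1 and Ccnd2 had r = 0.98, and Ccne1 and Cdk4 had r = 0.99. Cdkn1b ran opposite to Ccne1 (r = −0.87) and to Cdk4 (r = −0.83). Ccnd3 was closest to Cdkn2a (r = 0.86), both being highest in controls and lowest in HER2CA day 15. Outside the 10 genes, the closest to Ccnd1 on log2(CPM + 1) was the plexin gene Plxnb3 (r = 0.9991). The search took 11462 genes that reached 5 CPM in a group mean, with predicted and clone-named gene models passed over. Closest to Ccnd2 were Dbndd2 and Spred1, the latter an inhibitor of Ras signalling (r = 0.99 for both). Cdk2 was closest to H2afx (r = 0.99) and Mdc1 (r = 0.98), which encode a histone variant and a mediator of the DNA damage response. For Cdk6 the closest gene, Syne2, reached only r = 0.91.

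Genes that act beside the 10 were followed in lists chosen by function. Of 24 other G1 to S regulators, all measured, 11 were higher and 5 lower in gliomaspheres against controls (all genes 32.5% and 32.0%), with a median log2 fold change of 0.24. Of the same 24, 6 were higher and 4 lower with no scaling factors, where 1386 of all 13607 genes were higher and 3260 lower. Ccna2, the cyclin that follows cyclin E, went from 1.11 CPM in controls to 102 CPM in gliomaspheres (log2 fold change 6.51, SE 0.147, edgeR adjusted p = 2.89e-13). Ccne2, the second cyclin E gene, rose by 2.35 and Cdkn2c, which encodes the INK4 inhibitor p18, by 1.63 on the log2 scale, these 2 being named after their values were seen. Cdkn1a, which encodes the p53-responsive inhibitor p21, went from 1404 CPM in controls and 1373 CPM at HER2CA day 15 to 561 CPM in the 4OH-TAM-labelled libraries and 502 CPM in gliomaspheres. It fell by 1.29 in the 4OH-TAM-labelled libraries against HER2CA day 15 (SE 0.0844, edgeR adjusted p = 1.99e-09) and by 1.48 in gliomaspheres against controls (SE 0.0850, edgeR adjusted p = 1.05e-09). Between the 2 day 15 groups the list was split, 8 higher and 9 lower (all genes 40.8% and 39.7%), as it was in HER2CA day 15 against controls, 8 and 8 (all genes 37.3% and 38.4%).

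Of 19 genes for the turnover of D-type cyclins, cyclin E and p27, 17 were measured. In HER2CA day 15 against controls 10 were higher and 4 lower (all genes 37.3% and 38.4%), and in the 4OH-TAM-labelled libraries against HER2CA day 15, which share the HER2CA libraries, 4 were higher and 10 lower (all genes 40.8% and 39.7%). With upper-quartile factors those counts were 7 and 4, and 7 and 8, so the second split was nearly even. Over all 13607 genes the counts were then 4207 and 6091, and 6569 and 4109, so the background had moved as well. With no scaling factors the list counts were 4 and 2, and 0 and 4 (all genes 2304 and 3586, and 4338 and 2037). The ubiquitin ligase scaffolds Cul3 and Cul4a fell by 1.35 and 1.24 on the log2 scale in the 4OH-TAM-labelled libraries against HER2CA day 15 (edgeR adjusted p = 9.52e-11 and 8.10e-10). Skp2 and Cks1b, which target p27 for degradation, rose by 0.92 and 1.56 in gliomaspheres against controls (edgeR adjusted p = 1.09e-05 and 1.41e-07), where 5 of the 17 were higher and 4 lower (all genes 32.5% and 32.0%). Cks1b was lowest in HER2CA day 15, at 4.18 CPM against 6.82 CPM in controls.

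Of 20 genes for transcriptional control of the Cdkn2a and Cdkn2b locus, 19 were measured, with 4 higher and 10 lower in the 4OH-TAM-labelled libraries against HER2CA day 15 (all genes 40.8% and 39.7%) and 3 higher and 8 lower in gliomaspheres against controls (all genes 32.5% and 32.0%). With upper-quartile factors the first split was 8 and 6, where all 13607 genes were split 6569 higher and 4109 lower. With no scaling factors it was 3 and 4 (all genes 4338 and 2037). Suz12, a Polycomb subunit, fell by 1.59 and Ets2, a factor that can activate p16, fell by 2.02 in the 4OH-TAM-labelled libraries against HER2CA day 15 (edgeR adjusted p = 3.83e-11 and 2.57e-11). Ezh2, the Polycomb methyltransferase, rose by 1.89 in gliomaspheres against controls (edgeR adjusted p = 2.95e-10), and Ets1 by 1.17 (edgeR adjusted p = 2.45e-07). Of 12 genes from ARF to p53, 0 were higher and 11 lower in the 4OH-TAM-labelled libraries against HER2CA day 15 (all genes 40.8% and 39.7%), with a median log2 fold change of −0.42, against 0.01 over all genes. With upper-quartile factors 1 was higher and 8 lower (all genes 6569 and 4109), and with no scaling factors 0 and 4 (all genes 4338 and 2037). Trp53 fell by 1.06 (edgeR adjusted p = 1.32e-07) and Eda2r, a p53 target, by 1.06 (edgeR adjusted p = 1.75e-08). In gliomaspheres against controls 3 of the 12 were higher and 7 lower (all genes 32.5% and 32.0%).

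Transcripts of the steps that follow G1 were higher in gliomaspheres than in controls. All 22 S-phase genes were called higher there than in controls and all 20 mitosis genes as well (all genes 32.5%), with median log2 fold changes of 1.76 and 4.45, and both counts were the same without gliomaspheres B. Mcm5, a subunit of the replicative helicase, went from 1.52 to 56.9 CPM (5.23, SE 0.150, edgeR adjusted p = 1.41e-12) and Mki67, a marker of cycling cells, from 2.76 to 254 CPM (6.52, SE 0.179, edgeR adjusted p = 1.01e-12). In the 4OH-TAM-labelled libraries against HER2CA day 15, 18 of the 20 mitosis genes were higher and 2 lower, but the S-phase list was split, 9 higher and 8 lower of 22, near the shares over all genes (40.8% and 39.7%). Mki67 was at 13.5 and 16.9 CPM in those libraries and at 3.12 and 1.38 CPM at HER2CA day 15, below the 245 and 263 CPM of gliomaspheres. These lists moved together with Ccne1, Cdk2 and Cdk4 in gliomaspheres, and their part in those results was not tested.

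**Figure D5:**
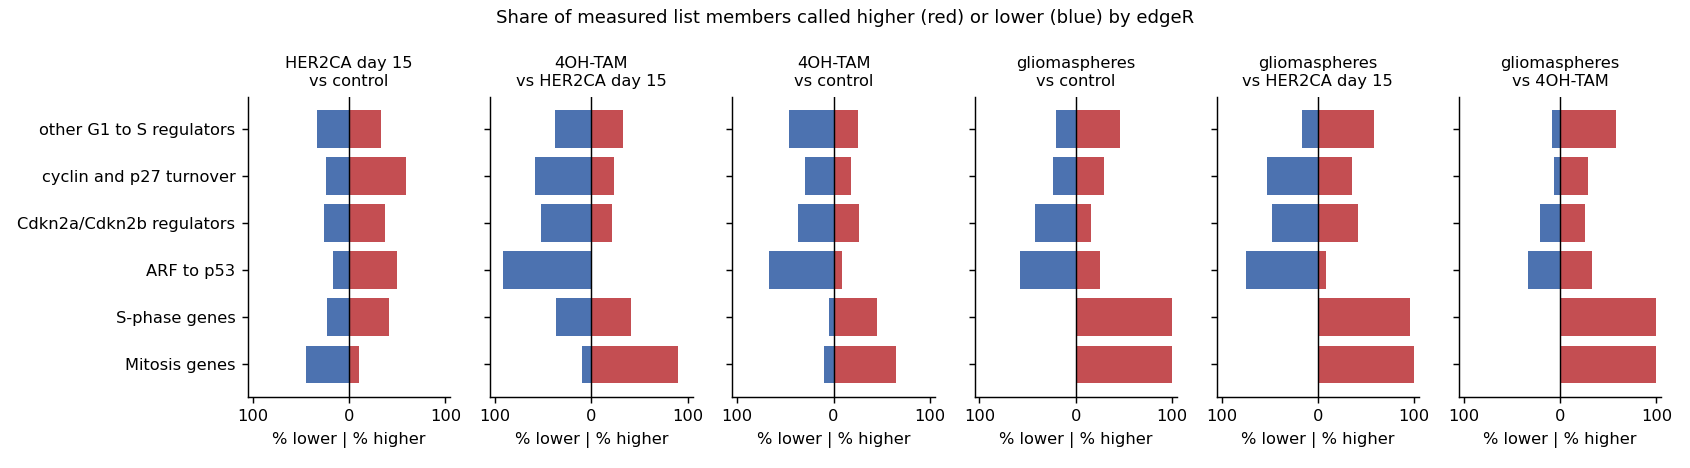
Share of the measured genes of each list called higher (red, to the right, in %) or lower (blue, to the left, in %) by edgeR in the 6 comparisons. The S-phase and mitosis lists reach 100% higher in gliomaspheres against controls and against the 4OH-TAM-labelled libraries, while the ARF to p53 list has 11 of 12 genes lower in the 4OH-TAM-labelled libraries against HER2CA day 15.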

How the data were processed

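Per the labels' protocols, the 8 samples (2 in each of 4 groups) were sequenced as polyA RNA from stranded mRNA libraries. Each gene symbol of the deposited table has a whole-number read count in every library, and its values show no normalisation by the authors. The submitters' processing notes list STAR 2.5.3a, featureCounts and FastQC, and the builds GRCm38 and mm10, without saying what each was used for. The sources used here do not give the annotation, the strand setting or any filter of the counting. All 13607 symbols reached 1 CPM in at least 2 libraries. Exons of Ccnd1, Ccnd2, Ccnd3, Cdk2, Cdk4 and Cdk6 overlap a gene on the opposite strand in GENCODE M21, so reads of the pair may not be separable.

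Groups came from the labels and columns were matched by sample description. Libraries of a group were compared first, and chi-square per degree of freedom was 4.05 or more in each, so each library was counted as 1 replicate. edgeR 4.0.16 (R 4.3.3) was run with TMM factors after filterByExpr, which removed no gene. Its quasi-likelihood fit took all 8 libraries with a mean for each group, which left 4 residual degrees of freedom. Each of the 6 pairwise contrasts went through glmQLFTest, with Benjamini-Hochberg adjustment across the 13607 genes and a threshold of 0.05. A standard error is the size of the log2 fold change over the square root of F. CPM levels use library sizes multiplied by the TMM factors, and genes were compared with each other after division by the length of a reference transcript.

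The 10 genes and the lists were chosen with earlier results of these data known. The genes named are all 10; for each, the 2 with the highest correlation over the 8 libraries; and from each list up to 2 with the largest called change at 5 CPM or more in the 4OH-TAM-labelled libraries against HER2CA day 15 and in gliomaspheres against controls. Some genes that the rule takes go unnamed. Ccne2, Cdkn2c and Myc were added after their values were seen.

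Alternatives were relative log expression, upper-quartile and no scaling factors, TMM after removal of Rn45s and Lars2, 2 other filters, DESeq2 1.42.0, the replicate letter as a block, fits of the 2 compared groups alone, each library left out, and other transcript lengths. No scaling after removal of Rn45s and Lars2, and merged exon length, were chosen after seeing the data, as were list counts under each alternative. On simulated data for the 4OH-TAM-labelled libraries against HER2CA day 15, over 13607 genes, the model called 24% of the genes set to change 1.25-fold. It called 88% at 1.5-fold, 94% at 2-fold and 100% at 4-fold, and 2.55% of its calls were false. The simulation changed only a small share of genes, gave all others the same mean in every group and set their spread by level alone. In the real comparison 80.5% of genes were called, so these rates describe the simulated setting only.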

Additional observations from a re-analysis of the deposited data

How the results depend on the processing

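Of the 46 calls of the 10 genes over the 6 comparisons, relative log expression factors, TMM without Rn45s and Lars2 and a fit with only the groups compared kept 46. No filter kept 46 by construction, since the main filter had removed no gene. DESeq2 and the 5 CPM filter kept 44, no scaling after removal of Rn45s and Lars2 43, upper-quartile factors 41, and no scaling factors 22. Fits with 1 library left out also count comparisons that do not contain that library, where a call is readily kept. Leaving out 1 library kept 43 to 46. With no scaling factors the number called was 4 in HER2CA day 15 against controls (all genes 43.3%). It was 3 in the 4OH-TAM-labelled libraries against HER2CA day 15 (46.9%) and 2 in those against controls (19.5%). Gliomaspheres then had 5 called against controls (34.1%) and 5 against HER2CA day 15 (56.3%). Against the 4OH-TAM-labelled libraries they had 3 called (30.9%), 1 of them at 2-fold or more (2939 of all 13607 genes). In the 4OH-TAM-labelled libraries against controls 2 genes were at 2-fold or more with upper-quartile factors, no scaling with or without Rn45s and Lars2, or the 5 CPM filter, and 1 to 2 with a library left out. The cause of these changes was not tested.

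Signs turned in 14 of the alternative values. With upper-quartile factors Ccne1 in HER2CA day 15 against controls was −0.033 and Cdkn1b between the day 15 groups 0.0047. With no scaling factors Cdk6 in gliomaspheres against HER2CA day 15 was −0.049, and against the 4OH-TAM-labelled libraries Ccnd2 was −0.31 (−0.012 after removal of Rn45s and Lars2), Ccnd3 −0.083 and Cdkn2a −0.19. Cdk6 in gliomaspheres against controls was 0.0014 with relative log expression factors, 0.018 in DESeq2 and −0.16 to 0.17 with a library left out. With a library left out Cdk6 ranged from −0.0795 to 0.23 in the 4OH-TAM-labelled libraries against controls and from −0.22 to 0.11 in gliomaspheres against those libraries, and Cdkn2a there from −0.12 to 0.34.

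Upper-quartile factors moved the median of all genes to 0.22 in the 4OH-TAM-labelled libraries against HER2CA day 15, with 6569 genes called higher and 4109 lower in place of 5547 and 5400, and to −0.17 in HER2CA day 15 against controls. With no scaling factors the medians of the gliomasphere comparisons were −0.30 to −0.38.

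The replicate letter did not pair the libraries: correlations of their deviations were −0.03 to 0.06. With the replicate block 7, 9, 7, 8, 8 and 7 of the 10 genes were called in the 6 comparisons, in the order of the report, the same 46 calls. With 2 libraries a group, small differences such as those of Cdk6 were at the limit of what these data resolve.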

Other observations

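Myc, a growth-promoting transcription factor that binds E-boxes, was looked at after its values were seen. It was at 20.3 and 21.1 CPM in controls, 102 and 108 CPM at HER2CA day 15, 59.8 and 68.9 CPM in the 4OH-TAM-labelled libraries and 99.1 and 116 CPM in gliomaspheres. Controls were below the other 6 libraries, and HER2CA day 15 and gliomaspheres overlapped. Against controls Myc was higher by 2.34 on the log2 scale in HER2CA day 15 (SE 0.0974, edgeR quasi-likelihood adjusted p = 1.74e-11) and by 2.37 in gliomaspheres (SE 0.0989, edgeR adjusted p = 3.45e-11). Its 2 highest groups held the lowest and the highest Ccnd1 levels of the series. Whether Myc bears on the levels of Ccnd1 or Cdk4 was not tested. Cdk4, whose upstream window holds 4 E-boxes, was 1.14-fold higher than controls in HER2CA day 15 (edgeR adjusted p = 0.0247). That call was lost with upper-quartile factors and the 5 CPM filter, among others. In gliomaspheres Cdk4 was 1.79-fold higher than in controls, a call lost with no scaling factors. In the 4OH-TAM-labelled libraries Myc was also higher than controls, by 1.64 on the log2 scale (edgeR adjusted p = 4.17e-09), while Cdk4 was not called there (−0.10, edgeR adjusted p = 0.261).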
